A study of Mus musculus with 399 samples.

Results

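TH mice (TALLYHO/Jng, a strain that develops obesity and type 2 diabetes through several genes) were compared at 20 and 5 weeks of age in 1 tissue and on 1 diet, the gonadal fat of animals fed standard chow. The members were all raw-count columns labelled TH, chow, fat and either age, which gave 24 libraries of the 399 in the series and of the 96 from fat: 6 female and 6 male libraries at each age. The labels number the libraries of a group as replicates without saying that each is a separate animal, so p-values measure the spread between libraries, and a phrase such as male 2 below means the library with that number. The study profiled polyadenylated RNA from liver, gonadal fat, soleus muscle and pancreas of male and female TH and C57BL/6J (B6) mice on chow or a high fat diet. Pups were weaned onto their diet at 4 weeks, so that the younger animals had eaten it for 1 week and the older ones for 16 weeks; the younger chow group is therefore both younger and closer to weaning, and these cannot be told apart. All animals were killed with CO2. The 24 B6 chow fat libraries (6 of each sex at each age) enter only where the difference between the strains is tested. The labels name no transgene and no drug in either strain, and they do not say whether the animals were fasted.

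Gonadal white fat stores triglyceride in large unilocular adipocytes, releases leptin, adiponectin and other hormones, and lies against the epididymis in males and the ovary and uterus in females. Between weaning and adulthood the depot grows, partly through new adipocytes formed from stromal precursors and partly through larger cells, and its matrix of collagens and elastin is remodelled as it does so. In obesity it also gathers macrophages, which scavenge lipid from dying adipocytes and present antigen, together with T and B cells. In bulk tissue a lower level of a gene can reflect fewer cells of a type or less of its RNA per cell, and these cannot be told apart here.

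Library totals ran from 4690541 to 13697017 assigned reads, with a median of 7744545.5, and all levels below are CPM, read counts per unit of library size after TMM scaling, which are not divided by gene length. The labelled tissue was checked against adipocyte genes. Adiponectin (Adipoq) stood at 1954, 2378 and 2883 CPM in females at 5 weeks (lowest, median and highest of 6, the order used throughout), 2404, 2705 and 2954 at 20 weeks, 981, 2351 and 2970 in males at 5 weeks and 2201, 2386 and 4176 at 20 weeks. The lowest values of the 24 were those of males 2 and 6 at 5 weeks, at 981 and 1129 CPM, and the same animals had the lowest Plin1 (473 and 918 CPM) and Cidec (900.2 and 1302 CPM), which coat lipid droplets. They also stood apart in genes of the epididymis, the duct against which the male fat pad lies: 33 such genes summed to 23881 and 23493 CPM, against 2.72 to 8.81 in the other 4 males at 5 weeks and 2.05 to 486 in males at 20 weeks. Their summed level of 18 adipocyte genes was 12923 and 19258 CPM, against 35859 to 41599 in the other 4. Both libraries were kept, as the rule of the comparison asks, and results that rest on them are given with and without them.

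**Figure D1:**
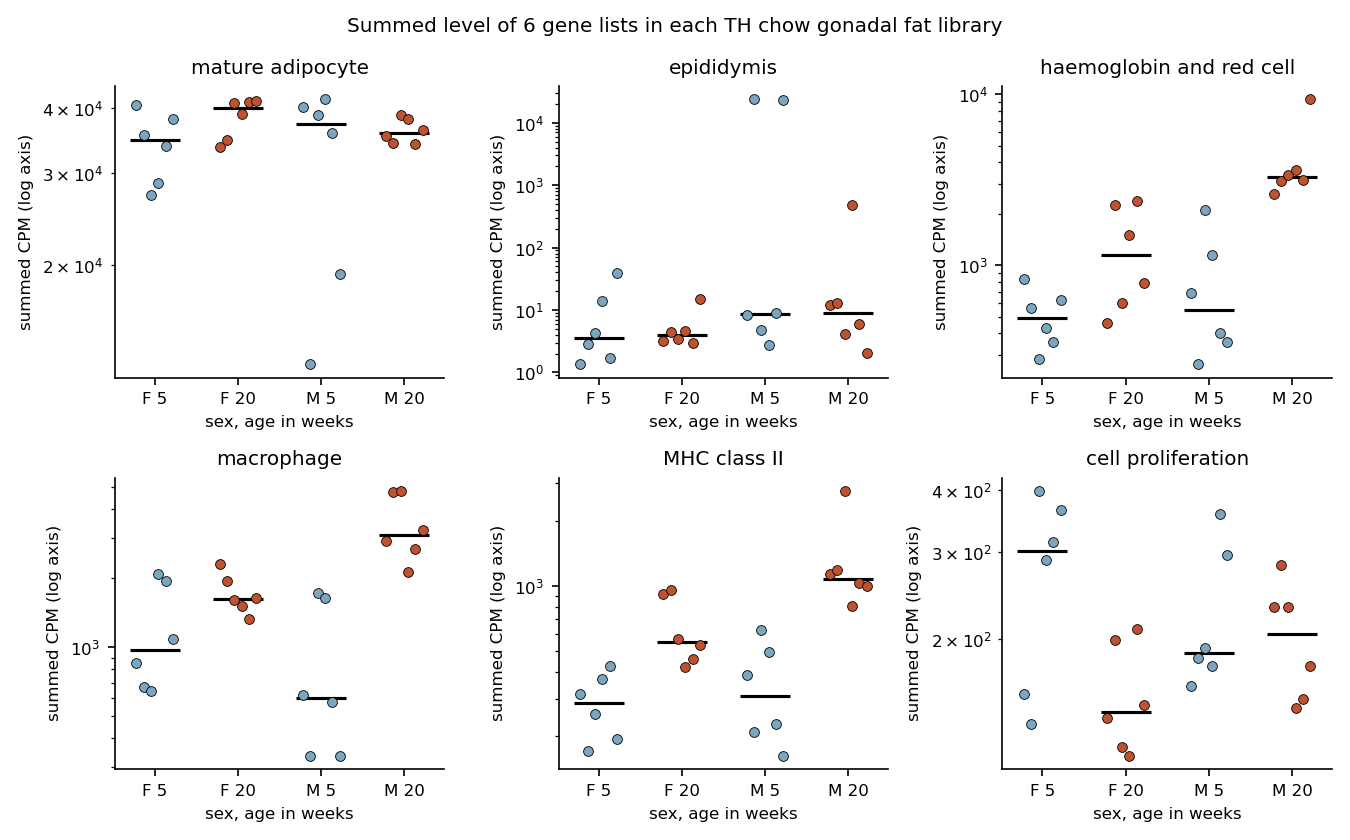
Summed CPM (log axis) of 6 gene lists in each of the 24 libraries, by sex and age in weeks; points are libraries and lines are group medians. In the 5-week male group 2 libraries stand far above the rest for epididymis genes and below them for adipocyte genes, and all 6 males at 20 weeks lie above all 6 at 5 weeks for haemoglobin, macrophage and MHC class II genes.

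Between 5 and 20 weeks, with sex as a covariate, 1553 genes rose and 1360 fell among the 17175 genes tested (edgeR quasi-likelihood test, Benjamini-Hochberg adjusted p under 0.05). That is 9.04% and 7.92% of the genes tested, 17.0% in all, and 738 of the 2913 changed at least 2-fold. The median change over all genes was -0.05 (log2). Immune genes, the haemoglobins and the WNT inhibitor Sfrp5 were among those that rose. Elastin, collagens, fatty acid and cholesterol synthesis enzymes, cell cycle genes and imprinted non-coding RNAs were among those that fell. Within males 1335 genes rose and 1114 fell (7.77% and 6.49%), and within females 268 rose and 223 fell (1.56% and 1.30%, 2.86% in all). Whether a change differed between the sexes was tested directly and is given further on, since the counts themselves do not show it. Without males 2 and 6 at 5 weeks 1591 genes rose and 1460 fell with sex as a covariate, of which 2256 were shared in the same direction. Within males 1021 then rose and 650 fell, and only 1129 of the 2449 male calls were kept in the same direction. Without female 3 at 5 weeks 182 rose and 132 fell within females.

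Genes without a symbol or with a predicted, clone or pseudogene name were set aside next. Of the others, at a mean log2 CPM of at least 1, 133 rose and 84 fell in each sex and with sex as a covariate. The 10 largest rises among them ran from 2.53 ± 0.28 to 3.44 ± 0.37 on the log2 scale. Dock8, an exchange factor for Cdc42 that leukocytes use to migrate, rose by 2.65 ± 0.20 on the log2 scale or 6.28-fold (adjusted p = 8.3e-09). Its level in females was 19.2, 23.3 and 33.3 CPM at 5 weeks and 60.4, 103 and 180.3 CPM at 20 weeks. In males it was 15, 22.9 and 27.7 CPM at 5 weeks and 154, 203 and 252 CPM at 20 weeks. No library of either sex at 20 weeks reached down to the 5-week range. Cd163l1, a membrane protein of the scavenger receptor cysteine-rich family, was 0.514, 0.584 and 0.801 CPM in females at 5 weeks and 2.73, 4.31 and 5.94 at 20 weeks, and 0.134, 0.487 and 1.21 and 5.97, 6.89 and 11.2 in males. Again neither sex overlapped between ages, and the rise was 3.22 ± 0.24 (log2, adjusted p = 5e-09).

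Sfrp5, a secreted WNT inhibitor made by adipocytes of a growing pad, stood at 1.38, 3.25 and 23.8 CPM in females at 5 weeks and 29.7, 45.6 and 216.4 CPM at 20 weeks. In males it went from 6.35, 42.7 and 78.9 CPM to 209, 295 and 423 CPM. The ages did not overlap in either sex although the young libraries varied widely, and the rise was 2.96 ± 0.46 (log2, adjusted p = 0.000128). Klf14, a Kruppel-like transcription factor of adipose tissue, was at 0.386, 1.15 and 3.28 CPM in young and 10.1, 11.9 and 16.7 CPM in older females. Males had 1.59, 2.87 and 7.31 CPM and 10.1, 14.5 and 17.0 CPM. It too separated the ages in each sex, with a rise of 2.53 ± 0.28 (log2, adjusted p = 1.89e-06). Pcolce2, which enhances the cleavage of procollagens, rose by 2.55 ± 0.33, from 11.8, 14.5 and 23.0 to 39.3, 63.1 and 71.7 CPM in females and from 2.31, 11.4 and 25.1 to 74.3, 96.1 and 235 CPM in males, again with no overlap.

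Other rises were large but less clean at the level of single libraries. Gabrr2, a GABA-A receptor subunit, showed the largest log2 change of the set at 3.44 ± 0.37 (10.9-fold, adjusted p = 1.23e-06). It reached 12.6, 21.3 and 38.8 CPM in older males against 0.288, 1.12 and 4.50 in young ones, and 1.70, 4.94 and 9.08 CPM in older females against 0.129, 0.463 and 1.94, where the highest young female lay above the lowest older one. Thbs1, the matrix glycoprotein thrombospondin, rose by 2.54 ± 0.35 and separated the ages in females (82, 147 and 212 against 221, 925 and 1798 CPM) but overlapped in males (37.2, 52.2 and 121 against 105, 353 and 879 CPM). Pla2g2d, a secreted phospholipase, rose by 2.72 ± 0.35, and the voltage-gated calcium channel gene Cacna1e by 2.60 ± 0.33. Serpina1e, of the alpha-1-antitrypsin family, rose by 3.08 ± 0.51, but its reads can be shared with near-identical copies and its value is uncertain.

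**Figure D2:**
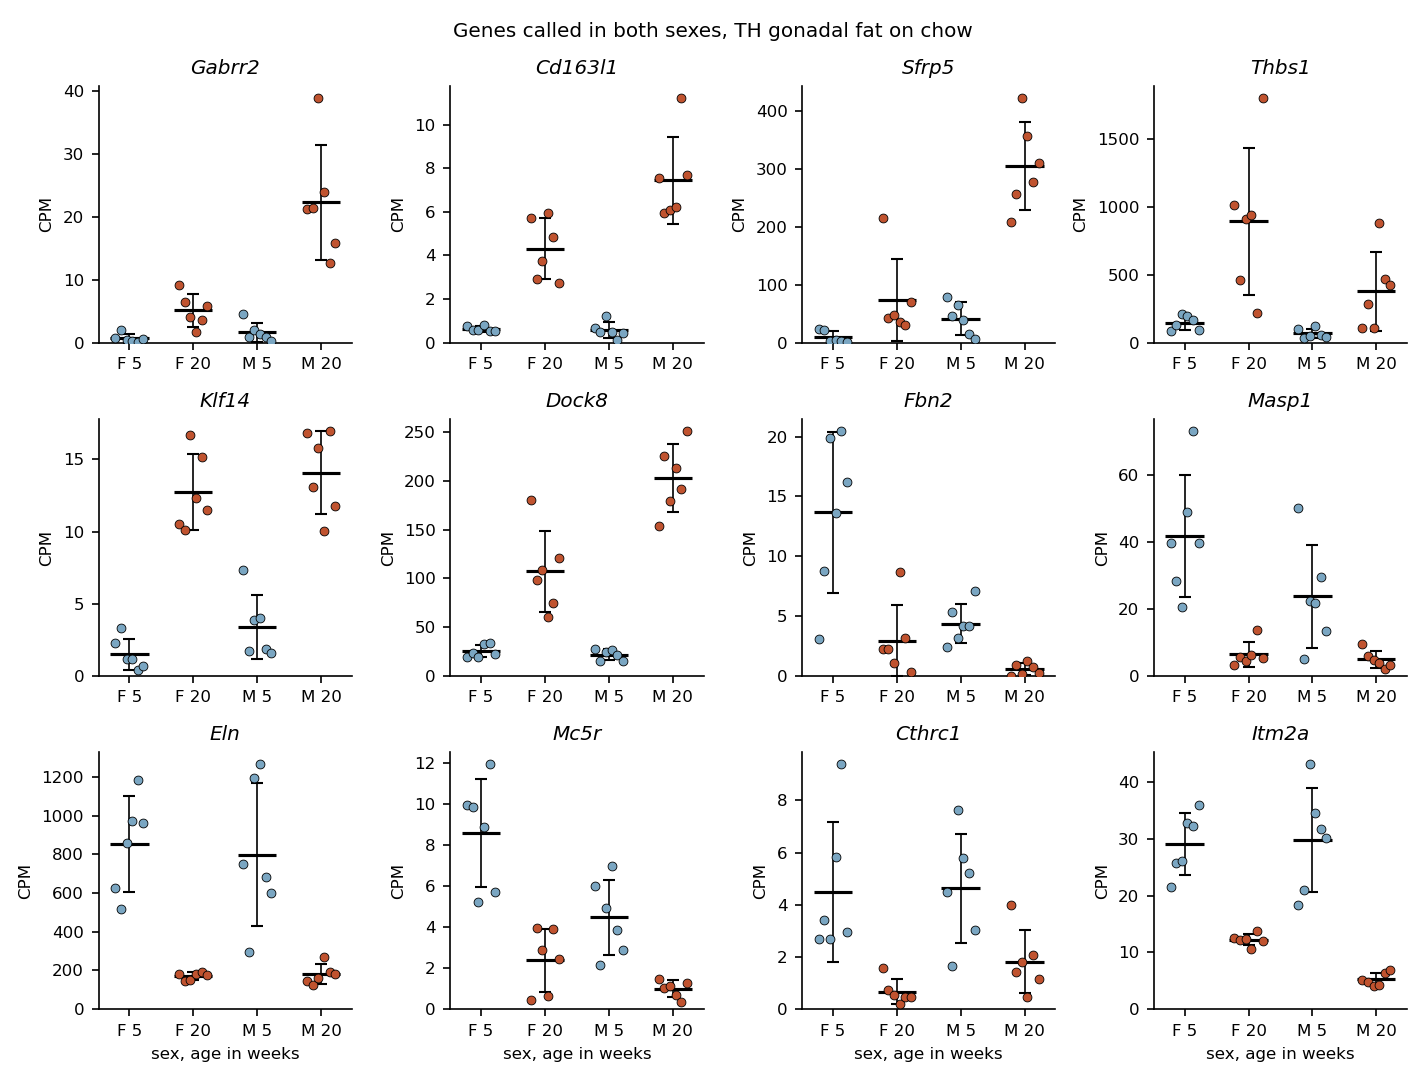
CPM of 12 genes that changed the same way in both sexes, by sex and age in weeks; points are libraries, and lines and bars are the mean and SD of 6. Dock8, Cd163l1, Sfrp5 and Klf14 rise without overlap in either sex, and Eln, Mc5r and Itm2a fall without overlap.

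The 10 largest falls of the same set ran from -2.50 ± 0.41 to -1.74 ± 0.27 on the log2 scale. Elastin (Eln), the core protein of elastic fibres, stood at 515, 912 and 1183 CPM in females at 5 weeks and at 143, 178 and 193 CPM at 20 weeks. In males it was 297, 715 and 1270 and 123, 172 and 272 CPM. Every older library lay below every young one of its sex, and the fall was -2.24 ± 0.19, a 4.72-fold lower level (adjusted p = 2.64e-08). Fbn2, the fibrillin of developing microfibrils, fell by 2.50 on the same scale (adjusted p = 0.000191). It went from 2.44, 4.14 and 7.07 to 0, 0.494 and 1.27 CPM in males without overlap and from 3.07, 14.9 and 20.4 to 0.303, 2.24 and 8.69 CPM in females with overlap. Cthrc1, a secreted collagen-like protein, changed by -1.94 ± 0.35 (adjusted p = 0.000545), with no overlap in females only.

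Genes for receptors and signalling fell as well. Mc5r, a melanocortin receptor found on adipocytes, went from 5.22, 9.37 and 11.95 to 0.422, 2.65 and 3.97 CPM in females and from 2.15, 4.41 and 6.97 to 0.366, 1.08 and 1.48 CPM in males, with no overlap and a change of -1.98 ± 0.30 (adjusted p = 7.31e-05). Adcy10, the soluble adenylyl cyclase, changed by -1.96 ± 0.28 and also separated the ages in both sexes. Masp1, a protease of the lectin pathway of complement, changed by -2.49 ± 0.32, and Aspg, an asparaginase, by -2.38 ± 0.33. Itm2a, a small membrane protein of stromal and T cells, was the one gene of these 20 whose change differed between the sexes. It fell in males from 18.3, 30.9 and 43.3 to 4.11, 4.94 and 6.92 CPM (-2.50 ± 0.19) and in females from 21.5, 29.2 and 35.9 to 10.6, 12.3 and 13.8 CPM (-1.24 ± 0.18), and the difference between these changes was -1.26 ± 0.26 (adjusted p = 0.0228). The secreted protein Lgi3 and the membrane protein Tmem79 complete the set at -1.78 ± 0.30 and -1.74 ± 0.27. All 20 genes passed the test in the same direction without males 2 and 6.

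Immune genes rose together. Of 22 macrophage genes tested, 17 rose and none fell in edgeR, with a median change of 0.99 against -0.05 over all genes. DESeq2 called 20 up and none down, and none was lower at an unadjusted p under 0.05. Summed, the list stood at 639.9, 973 and 2082 CPM in females at 5 weeks, 1324, 1626 and 2304 at 20 weeks, 335, 597 and 1722 in males at 5 weeks and 2140, 3088 and 4831 at 20 weeks. The male ages did not overlap and the female ages did. Among the defining genes, the receptor Csf1r went from 36.9, 60.9 and 240.5 to 175, 270.3 and 391 CPM in males and from 53.6, 104 and 219.6 to 149.7, 206 and 295 CPM in females, and with sex as a covariate rose by 1.02 ± 0.30 (adjusted p = 0.0218). Cd68, a lysosomal protein of phagocytes, rose by 1.57 ± 0.39 (adjusted p = 0.00738). Ccr2, the receptor that recruits monocytes, rose by 1.38 ± 0.32, and 2 of its ligands rose beside it, Ccl2 by 1.68 ± 0.35 and Ccl7 by 2.09 ± 0.42. Of 18 chemokines tested 8 rose and none fell, with a median of 0.54.

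Males 2 and 6 at 5 weeks held the lowest macrophage sums of the 24, 335 and 335 CPM, beside their low adipocyte and high epididymis sums. Without them 13 of the 22 macrophage genes rose, with a median of 0.78, and 7 of the 18 chemokines. Adgre1, the F4/80 antigen, then missed the threshold (0.92, adjusted p = 0.0762, against 1.20 ± 0.40 and 0.0385 with them), as did the 3 subunits of complement C1q (adjusted p = 0.0907, 0.0534 and 0.0807 for C1qa, C1qb and C1qc).

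Lymphocyte genes rose too. Of 14 T and NK cell genes tested 10 rose and none fell (median 1.21), and 11 rose without males 2 and 6. The T cell receptor component Cd3g went from 0.346, 0.682 and 1.16 to 1.56, 2.50 and 4.12 CPM in females and from 0, 0.357 and 1.45 to 1.60, 1.94 and 3.45 CPM in males. It separated the ages in each sex, and its rise was 1.89 ± 0.36 (adjusted p = 0.000877). Cd3e rose by 1.70 ± 0.29, the costimulatory receptor Cd28 by 1.80 ± 0.41, and the interleukin-7 receptor Il7r by 2.52 ± 0.50. Of 14 B and plasma cell genes 8 rose and none fell (median 1.40). The constant region genes Ighg2c, Ighg2b and Igha rose by 4.69 ± 0.76, 3.90 ± 0.78 and 2.75 ± 0.50, and the antibody joining chain Jchain by 2.23 ± 0.53. Ighg2c stood at 0, 0 and 0.288 CPM in young males and 1.16, 4.63 and 12.3 CPM in older ones, a separation without overlap. In females it was 0, 0.0408 and 0.346 and 0, 0.0782 and 1.37 CPM, which overlapped. The immunoglobulin constant regions resemble each other, so the split of reads between Ighg2b and Ighg2c is uncertain.

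All 7 MHC class II genes tested rose, with a median of 1.52, and 6 of them rose without males 2 and 6. This list holds the chains that present peptide (H2-Aa, H2-Ab1, H2-Eb1), their chaperone Cd74, the peptide editors H2-DMa and H2-DMb1, and the coactivator Ciita. H2-Aa stood at 17.3, 30.6 and 43.8 CPM in females at 5 weeks and 48.1, 63.4 and 123 CPM at 20 weeks. In males it was 15.7, 33.9 and 64.7 and 93.0, 127 and 312 CPM. Neither sex overlapped, and the rise was 1.73 ± 0.27 (adjusted p = 0.000108). H2-Eb1 also separated the ages in both sexes, rising by 1.66 ± 0.27, and H2-Ab1 and Cd74 rose by 1.57 ± 0.29 and 1.52 ± 0.26. Ciita rose by 1.09 ± 0.36 with all libraries (adjusted p = 0.0379) and missed the threshold without males 2 and 6 (0.85, adjusted p = 0.096).

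MHC class II promoters are known to carry a Y box, the letters that the factor NF-Y binds, and because these genes moved together the 250 bases before 3 of their starts are shown (RefSeq, GRCm38.p6, read 5′ to 3′ on the strand of the gene). The capitals mark the Y box TGATTGG, searched on both strands. H2-Aa lies at chr17:34287824-34288073 on the minus strand, H2-Eb1 at chr17:34305617-34305866 on the plus strand and H2-DMb1 at chr17:34152941-34153190 on the plus strand.
H2-Aa: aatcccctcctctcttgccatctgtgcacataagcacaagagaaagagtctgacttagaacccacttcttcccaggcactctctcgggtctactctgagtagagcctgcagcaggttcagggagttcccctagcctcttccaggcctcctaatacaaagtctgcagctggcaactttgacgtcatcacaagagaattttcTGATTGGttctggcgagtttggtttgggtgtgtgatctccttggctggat
H2-Eb1: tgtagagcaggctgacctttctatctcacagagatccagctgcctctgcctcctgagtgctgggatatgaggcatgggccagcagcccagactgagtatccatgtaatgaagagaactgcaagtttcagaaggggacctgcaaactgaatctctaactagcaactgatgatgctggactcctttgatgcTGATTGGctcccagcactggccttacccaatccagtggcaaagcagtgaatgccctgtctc
H2-DMb1: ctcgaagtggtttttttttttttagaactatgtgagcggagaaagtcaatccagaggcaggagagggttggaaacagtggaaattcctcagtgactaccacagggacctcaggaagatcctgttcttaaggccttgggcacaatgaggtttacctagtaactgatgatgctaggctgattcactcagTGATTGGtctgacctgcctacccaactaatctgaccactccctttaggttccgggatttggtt
Of the 7 MHC class II genes that rose, 4 had a promoter in the RefSeq table and 3 of these held the Y box within the 250 bases, while 7.23% of all 32851 promoters of that length did. In the whole list 4 of the 5 members with a promoter held it. A gene was counted if any of its promoters held the letters, while the 7.23% counts each promoter. A match is a run of letters and not evidence of binding in these samples.

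Haemoglobin genes, which mark red cells in the tissue, rose with the immune genes. All 5 tested rose, with a median of 1.89, and all 5 did so without males 2 and 6. The list of 7 summed to 284, 493 and 837 CPM in females at 5 weeks, 462, 1146 and 2375 at 20 weeks, 263, 546 and 2112 in males at 5 weeks and 2628, 3268 and 9370 at 20 weeks. The male ages did not overlap, as for the macrophage and MHC class II sums. What blood left in the tissue contributes to the rise of leukocyte genes was not tested. Of the other cell types that a gonadal fat pad can hold, 15 endothelial and 13 mesothelial genes gave no call with sex as a covariate (edgeR), and 7 skeletal muscle genes gave none. At an unadjusted p under 0.05, 2 endothelial genes were lower, 2 mesothelial genes were higher and 4 lower, and 0 muscle genes passed, while DESeq2 called 1 mesothelial gene lower and no other. With males 2 and 6 left out edgeR called 8 endothelial genes and 1 mesothelial gene lower.

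**Figure D3:**
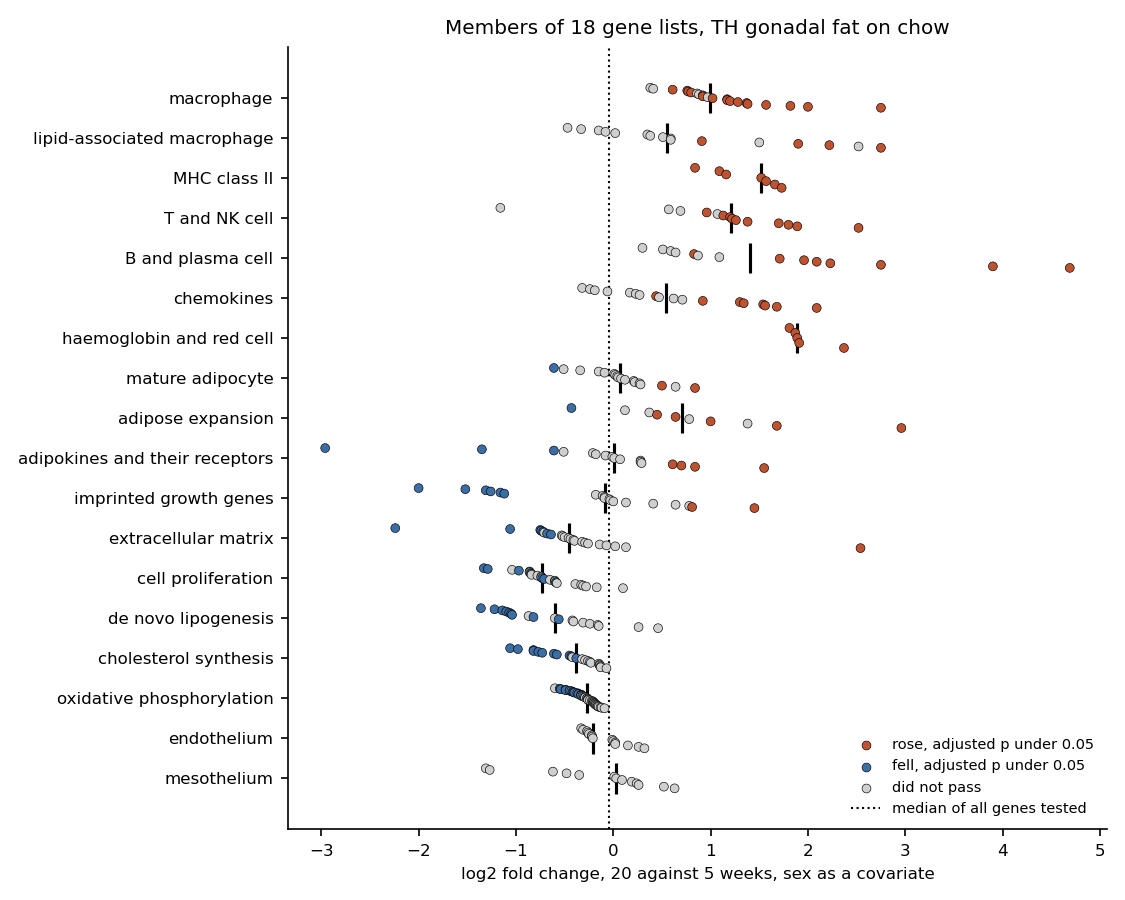
Log2 change between 5 and 20 weeks, with sex as a covariate, of each member of 18 gene lists; coloured points passed an adjusted p of 0.05 and the dotted line is the median of all genes tested, -0.05. All 7 MHC class II and all 5 haemoglobin members lie to the right of it, and most called members of the matrix, cell proliferation, lipogenesis, cholesterol and oxidative phosphorylation lists lie to the left.

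The immune rises were steeper in males for a small set of genes. The test of the male change minus the female change called 96 genes (0.559% of 17175), 86 above 0 and 10 below 0, or 0.501% and 0.0582%. Called members of the immune lists above 0 were Itgax, Ctss and Mpeg1 among the macrophage genes, 5 of the 16 lipid-associated macrophage genes, Il7r among T and NK cell genes, and Igkc and Jchain among B and plasma cell genes. Without males 2 and 6 the last 3 missed the threshold (adjusted p = 0.053, 0.0897 and 0.0835). Within males 14 of the 22 macrophage genes rose (median 1.31) and within females none passed in edgeR (median 0.51; 1 at an unadjusted p under 0.05 and 0 in DESeq2), but for most of these genes the difference between the sexes was itself not called.

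Mmp12, the macrophage elastase, had the largest difference. Older males stood at 102, 357 and 1273 CPM against 0.433, 9.48 and 29.8 CPM in young ones, a change of 5.39 ± 0.82 (log2). Females were at 0.864, 9.05 and 14.9 CPM at 5 weeks and 0.212, 2.32 and 10.5 CPM at 20 weeks, a change of -1.02 ± 0.80 that did not pass. Every older male lay above all 18 other libraries, and the difference between the changes was 6.41 ± 1.11 (adjusted p = 0.0086). Itgax, the integrin CD11c of dendritic cells and of fat macrophages, went from 1.87, 4.74 and 9.47 to 39.3, 107 and 349 CPM in males and from 1.73, 3.25 and 9.12 to 2.97, 3.26 and 9.5 CPM in females, a difference of 4.45 ± 0.74 (adjusted p = 0.00556). Gpnmb, a glycoprotein of lipid-laden macrophages, went from 4.41, 24.1 and 69.7 to 270.2, 546 and 1497 CPM in males and from 2.77, 18.3 and 41.6 to 8.92, 10.9 and 43.8 CPM in females, a difference of 4.60 ± 0.84.

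The remaining differences among phagocyte genes were of like sign. Trem2, the lipid-sensing receptor of these cells, differed by 2.85 ± 0.56, the lysosomal protease Ctss by 2.99 ± 0.52, the pore-forming protein Mpeg1 by 2.67 ± 0.50 and the lysosomal lipase Lipa by 1.72 ± 0.37. Of the 16 lipid-associated macrophage genes, 10 rose in males. In females edgeR and DESeq2 called none up or down, and 1 was lower at an unadjusted p under 0.05. Without males 2 and 6 the test called 55 genes (38 above 0 and 17 below), of which 38 were shared with the 96, and the difference of Mmp12 was 5.94 (adjusted p = 0.0147) and that of Itgax 4.12 (adjusted p = 0.0203). Gpnmb, Ctss and Mpeg1 also passed then, while Trem2 (2.53, adjusted p = 0.0574) and Lipa (1.43, adjusted p = 0.0689) did not. Leaving out male 2 at 20 weeks alone brought the 96 down to 34.

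**Figure D4:**
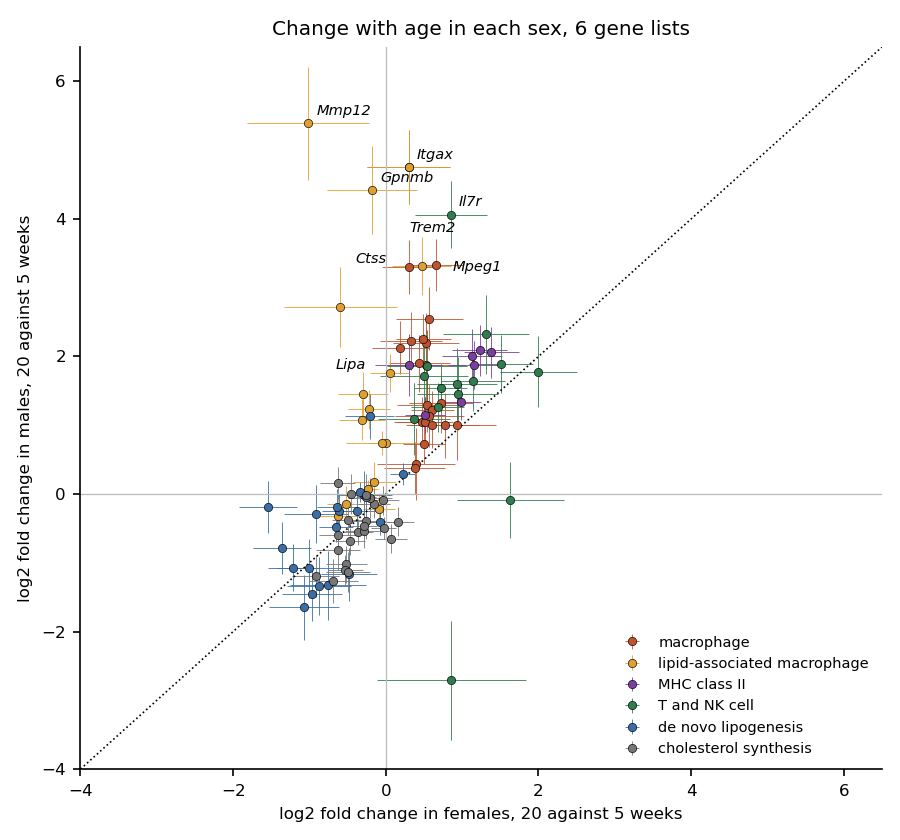
Log2 change with age in females (horizontal) and males (vertical) for the tested members of 6 gene lists, with standard errors; the dotted line marks equal change. Named genes passed the test of the difference between the sexes, and all of them lie above the line.

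Below 0, the 4 called genes with the largest difference were the peptide transporter Slc15a2, Morn4, the glucose transporter Slc2a3 and the receptor Ephb6. In males at 5 weeks Slc15a2 stood at 42.6 and 41.1 CPM in animals 2 and 6, the 2 with epididymis RNA, while the other 4 had 7.498, 5.32, 2.25 and 12.8 CPM. In the same 2 animals Slc2a3 was 52.3 and 30.6 CPM and Ephb6 37.0 and 35.8 CPM, in each case the highest of the 24 libraries. The differences were -4.27 ± 0.90, -2.36 ± 0.55, -2.12 ± 0.43 and -1.92 ± 0.39 with all libraries. Once males 2 and 6 were left out they were -2.86 (adjusted p = 0.0927), -1.57 (0.14), -1.44 (0.03) and -1.35 (0.0485), so that the first pair lost its call. In females Slc15a2 and Slc2a3 were nevertheless higher in each older library than in any young one, at 0.326, 0.902 and 1.56 against 2.66, 5.48 and 8.55 CPM for Slc15a2, a rise of 2.71 ± 0.70 (adjusted p = 0.0331), and at 3.46, 4.76 and 6.04 against 6.46, 8.92 and 11.5 CPM for Slc2a3, whose change of 0.93 ± 0.31 missed the threshold (adjusted p = 0.108).

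Of 18 mature adipocyte genes tested, Lep and Plin4 rose and Cfd fell, a share near the 17.0% of all genes, and the median was 0.07. Leptin (Lep), the satiety hormone that adipocytes secrete, stood at 637, 1208 and 1660 CPM in young and 1483, 2058.1 and 2510 CPM in older females, and at 481, 1362 and 2576 and 1636, 2692 and 3040 CPM in males. The ages overlapped in both sexes, and the rise was 0.84 ± 0.20 (adjusted p = 0.006), or 0.67 without males 2 and 6 (adjusted p = 0.00408). The lipid droplet protein Plin4 (0.50 ± 0.17, adjusted p = 0.0432) and the serine protease adipsin, Cfd (-0.61 ± 0.21, adjusted p = 0.0468), lay close to the threshold, and 16 and 15 of the 24 fits that left out 1 library lost them.

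Of 10 genes tied to growth of the depot 5 rose and 1 fell, with a median of 0.71. Beside Sfrp5, the intracellular growth factor homologue Fgf13 rose by 1.68 ± 0.24, from 14.2, 18.4 and 26.3 to 34.4, 51.2 and 76.3 CPM in females without overlap and from 4.04, 12.7 and 43.2 to 43.1, 57.3 and 77.3 CPM in males with it. Bmp3 rose by 1.00 ± 0.20, the natriuretic peptide clearance receptor Npr3 by 0.64 ± 0.18 and the caveolar coat protein Cavin1 by 0.45 ± 0.15, while the potassium channel Kcnk2 changed by -0.43 ± 0.14. The same 5 rises and 1 fall were called without males 2 and 6.

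Of 17 adipokines and receptors, 4 rose and 3 fell (median 0.01). The adipokine chemerin (Rarres2) rose by 0.70 ± 0.18 and its receptor Cmklr1 by 0.61 ± 0.19. Rarres2 separated the ages in males, at 48.7, 138 and 175 against 184, 229 and 399 CPM. Apelin (Apln), a peptide hormone of fat, fell from 24.3, 27.9 and 43.7 to 6.52, 12.9 and 16.2 CPM in females and from 9.82, 31.1 and 52.3 to 9.996, 12.6 and 14.96 CPM in males, a change of -1.35 ± 0.20 (adjusted p = 6.24e-05). Lipocalin-2 (Lcn2) was called at -2.96 ± 0.78, but males 2 and 6 held 1272 and 1412 CPM at 5 weeks and without them the change was -1.14 (adjusted p = 0.219). In females Lcn2 was 2.30, 3.94 and 5.82 CPM at 5 weeks and 0.626, 0.868 and 1.67 CPM at 20 weeks, without overlap, and did not pass (-1.98 ± 1.32, adjusted p = 0.482).

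Enzymes that make fatty acids fell. None of 19 de novo lipogenesis genes rose and 9 fell, with a median of -0.60, and 13 fell without males 2 and 6. Acly, which splits citrate to acetyl-CoA, went from 575, 797 and 1037 to 207, 270 and 439.8 CPM in males without overlap and from 1584, 2093.3 and 4260 to 186, 1001 and 2327 CPM in females with it, a change of -1.22 ± 0.28 (adjusted p = 0.00403). The elongase Elovl6 changed by -1.36 ± 0.33, the citrate carrier Slc25a1 by -1.14 ± 0.24 and acetyl-CoA carboxylase (Acaca) by -1.10 ± 0.29. Fatty acid synthase (Fasn) stood at 8215, 9828 and 21468 CPM in young and 309.7, 5709 and 13853 CPM in older females, and at 1469, 5682 and 8139 and 1584, 1956 and 3240 CPM in males. Its change was -1.05 ± 0.35 (adjusted p = 0.0425), with wide overlap. The summed list was 30163, 34856 and 70822 CPM in females at 5 weeks and 7495, 25362 and 44411 at 20 weeks, and 8084, 19828 and 25845 and 15095, 20627 and 25917 CPM in males.

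Of 23 cholesterol synthesis enzymes tested, 11 fell and none rose (median -0.38). The farnesyl diphosphate synthase gene Fdps changed by -1.06 ± 0.22, the sterol reductase Tm7sf2 by -0.98 ± 0.23, the dehydrogenase Nsdhl by -0.82 ± 0.21 and the demethylase Cyp51 by -0.82 ± 0.17. Cyp51 separated the ages in males, at 38.2, 48.5 and 69.9 against 16.9, 24.4 and 33.2 CPM. In females it overlapped, at 24.2, 36.9 and 42.8 against 13.4, 24.5 and 36.5 CPM. Within males 8 of the 23 fell. Within females edgeR and DESeq2 called none, and 8 were lower at an unadjusted p under 0.05. None was called by edgeR or DESeq2 for the difference between the sexes. Without males 2 and 6, 8 fell with sex as a covariate and 2 within males. Sterol genes are known to pair sterol-regulated sites with a Y box, and the 250 bases before 2 called members that hold it are shown with the Y box in capitals, Idi1 at chr13:8885356-8885605 on the plus strand and Lss at chr10:76531355-76531604 on the plus strand.
Idi1: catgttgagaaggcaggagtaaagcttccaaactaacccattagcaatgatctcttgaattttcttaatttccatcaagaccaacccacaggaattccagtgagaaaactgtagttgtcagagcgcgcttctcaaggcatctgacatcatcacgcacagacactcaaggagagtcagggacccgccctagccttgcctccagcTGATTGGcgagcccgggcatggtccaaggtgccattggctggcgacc
Lss: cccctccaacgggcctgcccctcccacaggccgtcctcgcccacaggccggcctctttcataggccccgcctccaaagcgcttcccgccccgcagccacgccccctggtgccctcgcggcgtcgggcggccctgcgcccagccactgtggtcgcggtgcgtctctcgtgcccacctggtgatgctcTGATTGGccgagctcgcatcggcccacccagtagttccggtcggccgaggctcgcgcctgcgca
Idi1 makes an isoprenoid precursor and Lss closes the sterol rings, and their changes were small, -0.45 ± 0.13 and -0.43 ± 0.15. The latter missed the threshold without males 2 and 6 (-0.37, adjusted p = 0.102). The Y box was found in 4 of the 7 called members with a promoter (11 called in all), in 1 of 9 called lipogenesis members and in 1 of 12 called macrophage members with a promoter, against 7.23% of all promoters. Among all members with a promoter, called or not, it was found in 10 of 16 cholesterol, 3 of 16 lipogenesis and 1 of 16 macrophage genes. The called cholesterol genes thus held it no more often than their whole list.

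Of 42 oxidative phosphorylation genes, most of them subunits of the respiratory chain, 14 fell and none rose, with a median of -0.27. Cytochrome c (Cycs) changed by -0.55 ± 0.13, the complex I subunit Ndufa1 by -0.54 ± 0.10, the complex III subunit Uqcrq by -0.49 ± 0.15 and the complex IV subunit Cox5a by -0.49 ± 0.11. Cycs stood at 186, 219.7 and 242.6 CPM in young and 85.7, 149 and 233 CPM in older females and at 143, 209 and 235 and 103, 122 and 172 CPM in males, and all of these ranges overlapped between ages. The count was 27 without males 2 and 6, and it ran from 9 (without male 5 at 20 weeks) to 21 (without male 3 at 20 weeks) when 1 library was left out. Fatty acid oxidation gave 1 rise and 1 fall in 22, a share below the 17.0% called over all genes. The fall was that of the carnitine palmitoyltransferase Cpt2 (-0.43 ± 0.14, adjusted p = 0.0382), which lost its call in 17 of 24 such fits. The falls in this list numbered 8 when males 2 and 6 were left out. None of 13 thermogenic genes was called with sex as a covariate by edgeR or DESeq2 (median -0.16), and 2 were lower at an unadjusted p under 0.05. Their median was 0.88 in males, where 3 rose, and -1.31 in females, and the proton channel Otop1 was called for the difference between the sexes (3.38 ± 0.74, adjusted p = 0.0335). With males 2 and 6 at 5 weeks left out none rose in males and Otop1 missed the threshold (3.05, adjusted p = 0.0835). The summed thermogenic list was 410.9 CPM in male 2 at 20 weeks. It was 87.34 to 111.8 CPM in the other males at 20 weeks and 68.28 to 91.8 CPM in males at 5 weeks, so the older males stood apart mainly through 1 library.

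The matrix list followed elastin. Of 23 extracellular matrix genes 7 fell and 1, Thbs1, rose, with a median of -0.46. Collagen III (Col3a1) went from 2355, 5306 and 8146 to 2175, 2529 and 3185 CPM in females and from 994, 3256 and 6299 to 1274, 1577 and 2320 CPM in males, overlapping in both, and changed by -1.06 ± 0.24 (adjusted p = 0.00386). The basement membrane chains Col4a1 and Col4a2 changed by -0.68 ± 0.17 and -0.72 ± 0.18, Col5a3 by -0.74 ± 0.19 and periostin (Postn) by -0.64 ± 0.15. Without male 2 at 5 weeks 14 members fell, and without males 2 and 6 together 17 fell and the median was -0.61, so the 7 with all libraries is the low end of these counts. Of 17 fibroblast and preadipocyte genes tested 1 rose and 2 fell, a share near the 17.0% called over all genes. The rise was that of Icam1 (0.42 ± 0.12). The falls were those of the surface protein Cd34 (-0.45 ± 0.12) and the preadipocyte factor Dlk1 (-1.16 ± 0.33).

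Dlk1 belongs to an imprinted cluster whose maternally expressed non-coding RNAs fell together. Meg3 stood at 202, 244.7 and 327 CPM in females at 5 weeks and 91.1, 116 and 124 CPM at 20 weeks. In males it was 59.9, 109.5 and 167 and 45.9, 56.3 and 59.5 CPM. No older library reached the young range of its sex, and the change was -1.12 ± 0.12 (adjusted p = 1.26e-06). Rian, from the same cluster, separated the ages in both sexes too and changed by -1.26 ± 0.14, and Mirg by -1.31 ± 0.22. From other clusters H19 changed by -1.52 ± 0.31 and the amino acid transporter Slc38a4 by -2.00 ± 0.49, while Peg10 rose by 1.45 ± 0.25 and Peg3 by 0.81 ± 0.27. In all 2 of 19 imprinted growth genes rose and 6 fell (median -0.09). Peg3 missed the threshold without males 2 and 6 (adjusted p = 0.0825), and the count of rises ran from 1 to 4 when 1 library was left out, the 4 without male 4 at 5 weeks.

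In the insulin and IGF list 1 of 19 genes rose and 3 fell, a share not far from the 17.0% called over all genes. Irs2, the insulin receptor substrate, rose by 1.09 ± 0.18 (adjusted p = 0.000189), from 21.5, 29.6 and 56.3 to 63.5, 80.3 and 102 CPM in females without overlap and from 34.03, 43.8 and 68.5 to 35.2, 95.7 and 111 CPM in males with it. The RNA-binding protein Igf2bp2 changed by -0.97 ± 0.21 and the binding protein Igfbp7 by -0.40 ± 0.11. Igfbp2 was called at -1.06 ± 0.34 and not without males 2 and 6 (-0.55, adjusted p = 0.157).

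Cell cycle genes fell. Of 25 proliferation genes 8 fell and none rose, with a median of -0.73, and within females 4 fell (median -1.16) while within males 1 rose and none fell (median -0.31). None of the 25 was called in the test of the difference between the sexes by edgeR or DESeq2, and 5 had an unadjusted p under 0.05 there. The mitotic kinase Cdk1 stood at 4.48, 10.4 and 13.9 CPM in young and 1.97, 4.06 and 6.23 CPM in older females, and at 4.22, 6.28 and 14.2 and 2.89, 5.01 and 6.81 CPM in males. Both sexes overlapped, and the change was -0.97 ± 0.24 (adjusted p = 0.00832). Cdc20, which drives exit from mitosis, changed by -1.33 ± 0.30, and the kinetochore protein Cenpf by -1.29 ± 0.36. The replication helicase subunits Mcm6 and Mcm2 changed by -0.73 ± 0.23 and -0.59 ± 0.17. The count of falls was 7 without males 2 and 6, and ran from 5 (without female 1 at 20 weeks) to 12 (without female 1 at 5 weeks) with 1 library left out.

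Promoters of mitotic genes are known to hold Y boxes close to a cell cycle homology region (CHR), and 2 of the called members are shown over the 250 bases before their starts (RefSeq, GRCm38.p6), Cdk1 at chr10:69352913-69353162 and Cenpf at chr1:189688087-189688336, both on the minus strand. The capitals mark TGATTGG or its reverse, CCAATCA, and the CHR letters TTTGAA or their reverse, searched on both strands and neither motif contains the other.
Cdk1: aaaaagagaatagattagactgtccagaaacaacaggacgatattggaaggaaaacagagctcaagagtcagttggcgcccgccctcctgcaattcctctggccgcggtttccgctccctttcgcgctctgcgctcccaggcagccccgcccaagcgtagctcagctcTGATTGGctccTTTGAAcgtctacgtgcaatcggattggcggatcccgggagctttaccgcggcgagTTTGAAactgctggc
Cenpf: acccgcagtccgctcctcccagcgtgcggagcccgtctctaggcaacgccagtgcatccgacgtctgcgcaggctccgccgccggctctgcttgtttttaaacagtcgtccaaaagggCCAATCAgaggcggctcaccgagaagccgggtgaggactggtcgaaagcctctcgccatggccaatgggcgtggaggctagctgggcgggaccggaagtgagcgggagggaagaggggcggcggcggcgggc
Of the 8 called members 7 had a promoter, of which 5 held the Y box and 4 the CHR letters. Among all 21 members with a promoter, called or not, 10 held the Y box and 8 the CHR letters. Whether either motif goes with the change was not tested. Over all 32851 promoters of this length the shares were 7.23% and 16.0%.

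The counts of the other lists stand beside 17.0% called over all genes. Of 20 immediate early genes 4 rose (Atf3, Jun, Junb and Btg2), by 1.42 ± 0.48 for the stress factor Atf3 and by 0.37 to 0.41 for the rest, and without males 2 and 6 only Junb was called. Atf3 differed between the sexes (3.52 ± 0.51, adjusted p = 0.00312), at 3.47, 4.61 and 5.59 against 15, 33.7 and 84.2 CPM in males without overlap and 3.80, 10.1 and 20.3 against 6.10, 8.07 and 12.2 CPM in females. Interferon response genes gave 1 fall in 19, Irf7 (-0.66 ± 0.22), which 9 of the 24 fits with 1 library left out did not call. Within females 3 interferon genes fell, Isg15 by -1.78 ± 0.44, Ifi44 by -1.72 ± 0.46 and Rtp4 by -1.59 ± 0.38. Their list summed to 1255 CPM in female 3 at 5 weeks, against 309.8 to 388 in the other 5 young females and 264, 296 and 367 in older ones. Without that library none of the 3 passed within females (Isg15 -1.02, adjusted p = 0.119, Ifi44 -0.73, adjusted p = 0.214 and Rtp4 -0.98, adjusted p = 0.0901). Of 10 sex hormone genes, the mineralocorticoid receptor Nr3c2 rose (0.48 ± 0.14) and the steroid enzymes Srd5a1 (-1.17 ± 0.28) and Hsd11b1 (-0.66 ± 0.18) fell. Lipolysis (16 genes), senescence (8), clock (18) and endoplasmic reticulum chaperone (21) lists gave 2, 2, 2 and 1 calls. Of the epididymis list 2 genes were tested, and their falls, Gpx5 -5.99 and Defb42 -5.32, were 0.25 and 0.62 without males 2 and 6 and did not pass (adjusted p = 0.896 and 0.694). Of 9 ovary and uterus genes only Inha was called (-1.73), and not without the same pair (adjusted p = 0.278).

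Whether these changes differed from those of B6 fat on chow was tested over 48 libraries as the TH change minus the B6 change, sexes averaged. Of 18685 genes tested 222 were called (1.19%), 144 above 0 and 78 below 0 (0.771% and 0.417%). B6 fat itself had 1313 genes up and 1468 down between the ages (7.03% and 7.86%, 14.9% in all). Most young B6 males carried epididymis RNA: 5 of 6 exceeded 1000 CPM for the summed list, at 158, 1977 and 18675 CPM (lowest, median, highest), while B6 females had 3.19, 10.5 and 158 CPM at 5 weeks. The test was therefore also run on the 24 female libraries, where it called 7 genes (6 above 0 and 1 below), 3 of them shared with the 222. These libraries differed too: the adipocyte sum was 11189, 23405 and 33290 CPM in B6 females at 5 weeks and 11791, 29650 and 38050 at 20 weeks, against 27379, 34928 and 41054 and 33973, 40394 and 42037 in TH females. In B6 males it was 11723, 23742 and 29438 CPM at 5 weeks and 25543, 40411 and 46559 at 20 weeks. TH males had 12681, 37419 and 42306 and 34126, 36052 and 39557 CPM. The part of these sums in the strain differences was not tested. With both sexes and without TH males 2 and 6 the strain test called 411.

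Dock8 differed most firmly. On the 48-library scale TH females went from 19.2, 23.3 and 33.7 to 61.2, 106 and 182 CPM, and B6 females from 16.3, 20.6 and 23.2 to 11.5, 20.1 and 28.2 CPM. TH males went from 14.9, 23.0 and 28.0 to 154, 203 and 253 CPM, and B6 males from 13.2, 16.8 and 20.3 to 18.98, 28.8 and 33.6 CPM. The difference was 2.34 ± 0.21 (adjusted p = 2.71e-10), the B6 change was 0.32 ± 0.15 and did not pass, and in females alone the difference was 2.13 (adjusted p = 0.0101). Pcolce2 differed by 1.97 ± 0.39 (adjusted p = 0.00527), and by 2.22 in females alone (adjusted p = 0.0329). Its B6 change of 0.59 ± 0.28 did not pass. Cd163l1 rose in both strains, by 0.90 ± 0.23 in B6, and differed by 2.31 ± 0.34 (adjusted p = 8.43e-05), but not in females alone (1.84, adjusted p = 0.188). Cacna1e differed by 2.60 (adjusted p = 0.0283), also not in females alone (adjusted p = 0.215).

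For the other 16 of the 20 genes that changed in both sexes, no difference between strains was called with all 48 libraries. Without TH males 2 and 6 it was called for Masp1 (-1.57, adjusted p = 0.0108) and Klf14 (-1.89, adjusted p = 0.0418). Eln changed by -2.29 ± 0.25 in B6, a difference of 0.06 from TH (adjusted p = 0.977), and Itm2a, Mc5r, Adcy10, Sfrp5 and Klf14 also moved in B6 in the same direction, by -2.07 ± 0.16, -2.15 ± 0.32, -2.09 ± 0.37, 3.50 ± 0.49 and 4.30 ± 0.42. A missed threshold does not show that the strains act alike: for Klf14 the difference with all libraries was -1.71 ± 0.52 (adjusted p = 0.0985).

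Among genes also called for the age change in TH, the 4 largest differences above 0 were those of 3 major urinary proteins and a serpin. These were Mup1, Mup12, Mup15 and Serpinb9b. Mup16, which was not called for that age change, differed by 3.56 ± 0.72 (adjusted p = 0.00609). Mup1 stood at 0, 0.0601 and 0.211 CPM in young TH males and 0, 4.29 and 19.7 in older ones, against 0, 0.878 and 3.44 and 0, 0.455 and 1.10 in B6 males, and its difference of 4.07 ± 0.79 was 1.02 in females alone (adjusted p = 0.648). Serpinb9b differed by 3.37 ± 0.82 (adjusted p = 0.024). These families have near-identical copies, so the value of any single member is uncertain. Below 0, Prr32 rose in TH (2.14 ± 0.23) and further in B6 (4.68 ± 0.40), a difference of -2.53 ± 0.50 (adjusted p = 0.00488). Cyp2e1, a cytochrome P450, fell in TH (-1.41 ± 0.32) and rose in B6 (0.96 ± 0.26). Its difference was -2.37 ± 0.37 with both sexes and -1.54 in females alone (adjusted p = 0.388). The galectin Lgals7 and the carboxylesterase Ces1f differed by -1.52 ± 0.34 and -1.31 ± 0.33, and neither was called in females alone.

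**Figure D5:**
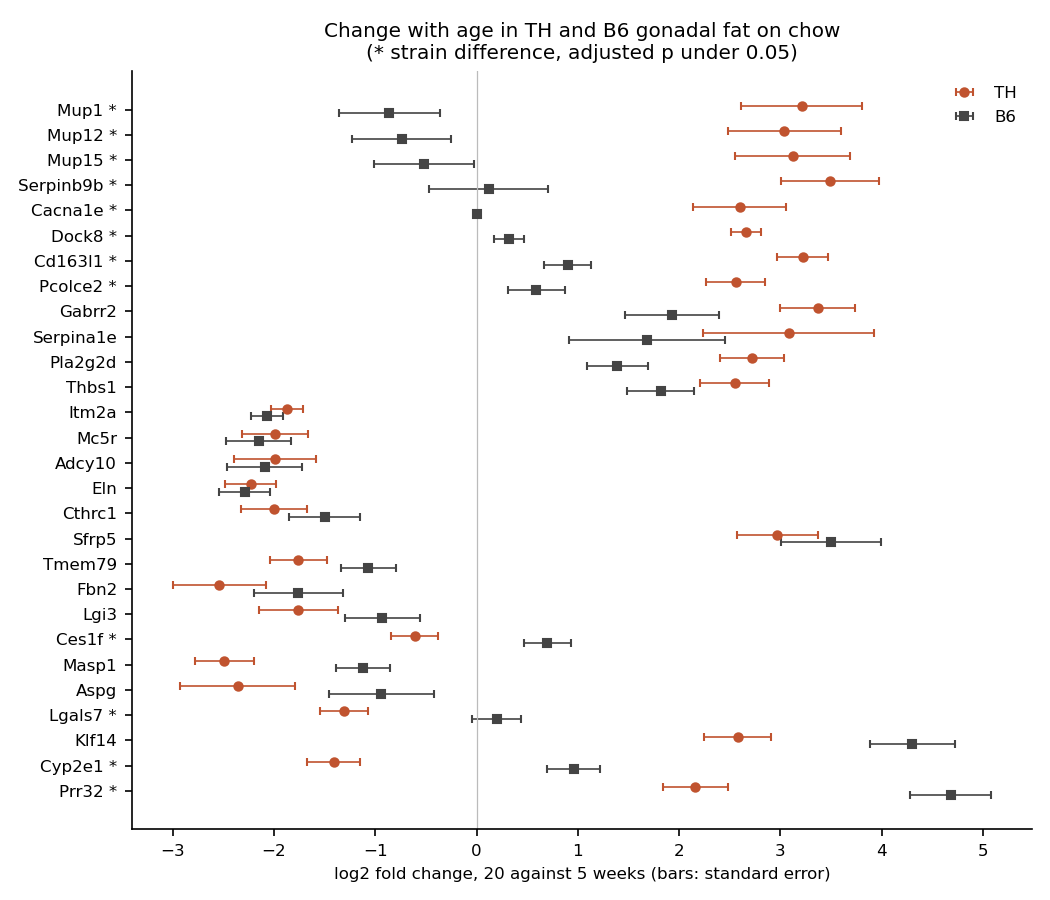
Log2 change between 5 and 20 weeks in TH and B6 gonadal fat on chow, with standard errors. The genes are those named for a change in both TH sexes and those with the largest strain differences among genes called in TH. Asterisks mark an adjusted p under 0.05 for the difference. TH and B6 points lie close together for Eln, Mc5r and Adcy10 and apart for Dock8 and Cd163l1. The B6 change of Cacna1e, 0 as an average of sexes that moved in opposite directions, has no bar.

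Macrophage genes called in the strain test were Itgax (2.36 ± 0.48), Ctss (1.46 ± 0.35) and Mpeg1 (1.44 ± 0.33), with Il7r (1.79 ± 0.42) among T cell genes. On the 48-library scale the macrophage list summed to 2147, 3102 and 4924 CPM in TH males and 983, 1315 and 2381 CPM in B6 males at 20 weeks, and to 1327, 1657 and 2326 and 314, 690.1 and 1835 CPM in TH and B6 females. In females alone none of these genes passed. The differences there were 0.97 for Itgax (adjusted p = 0.781), 0.42 for Ctss (0.883), 0.46 for Mpeg1 (0.862) and 0.82 for Il7r (0.719).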

How the data were processed

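Polyadenylated RNA of TH and B6 gonadal fat on chow was sequenced from stranded TruSeq libraries made from 1000 ng of RNA with a RIN above 8, per the labels' protocols. The authors deposited raw counts per gene. Per the submitters' processing notes, Trimmomatic 0.39, HISAT2 2.2.1, SAMtools, DESeq and DESeq2 were used with GRCm39. Which program counted reads, on which annotation and with which strand option is not given in the sources used here, so overlapping and antisense genes may share reads. The tables of normalized counts and FPKM were not used, nor were 303 per-sample value columns. Symbols came from GENCODE M21 and matched 52073 of 56980 gene IDs.

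The main test was edgeR 4.0.16 (R 4.3.3): TMM factors, filterByExpr with a minimum count of 10 and a minimum total of 15, the quasi-likelihood F test and Benjamini-Hochberg adjustment over all genes tested, with a threshold of 0.05. The change with age was fitted on 24 libraries with sex as a covariate. The change in each sex and the difference between sexes came from 4 group means, and the difference between strains from 8 group means over 48 libraries. A value after ± is a standard error, computed as the size of the log2 change over the square root of F. CPM were computed from the counts and the TMM-scaled totals of the genes tested. Before filtering and scaling the totals ran from 4690541 to 13697017. On simulated data with 16985 genes the age fit recovered 88 of 100 genes changed by 1 on the log2 scale and 42 of 99 changed by 0.5, with 5 unchanged genes among 135 calls. The simulation had no difference between sexes, no libraries with epididymis RNA and far fewer changed genes than were called here. These rates therefore need not hold for the real libraries.

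Genes were named by rule at a mean log2 CPM of at least 1. The rule took the 10 largest rises and falls called overall and in each sex. It also took the 4 largest called differences in each direction between sexes and between strains, and up to 4 called members of each list. Differences between strains were ranked only among genes also called for the age change in TH. Genes without a symbol or with a predicted, clone or pseudogene name were left out of these rankings. Other names were chosen after their values were seen, and some genes that the rule names are not reported here. The members and the 32 gene lists were chosen with earlier results of these data known, so no list is independent evidence. Sequences came from RefSeq (GRCm38.p6), matched by symbol. A list member was counted as holding a motif if any promoter with its symbol did, while the shares over all promoters count each promoter. Alternatives were RLE factors, no filter, a replicate block, covariates for GC slope and for epididymis and ovary scores, all 96 fat libraries, DESeq2 1.42.0 and leaving out libraries; those without males 2 and 6 at 5 weeks, with 4 group means averaged over sex, without female 3 at 5 weeks or with females only were added after seeing the data.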

Additional observations from a re-analysis of the deposited data

Results flagged for a closer look

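In 188 sets of 6 libraries (genes and summed lists), 14 had a highest or lowest library far from the other 5 by Dixon's test at its 95% critical value, which chance alone does in about 1 set in 20. Males at 20 weeks held 5 of them: Pcolce2 at 234.9 CPM in replicate 3 (highest), Lgi3 at 0.462 CPM in replicate 4 (lowest), the MHC class II sum at 2771 CPM in replicate 3, the haemoglobin sum at 9370 CPM in replicate 6 and the epididymis sum at 486.2 CPM in replicate 4. Males at 5 weeks held Aspg at 26.7 CPM (highest), Tmem79 at 3.37 CPM and Lgals7 at 1.15 CPM (lowest), all in replicate 2, one of the pair with epididymis RNA. Females at 5 weeks held Tmem79 at 15.9 CPM and the lipogenesis sum at 70822 CPM in replicate 6, and Ephb6 at 11.8 CPM and Mup1 at 1.29 CPM in replicate 5. Females at 20 weeks held the lipogenesis sum at 7495 CPM in replicate 1 and the epididymis sum at 15 CPM in replicate 6.

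For 8 genes the change with age differed between males and females by the edgeR test of the difference. It was 6.41 on the log2 scale for Mmp12, 6.01 for Mup19, 5.82 for Mup22 and 5.71 for Mup16, steeper in males. It was -4.27 for Slc15a2, -2.36 for Morn4, -2.12 for Slc2a3 and -1.92 for Ephb6. For a further 8 the change differed between TH and B6: 4.07 for Mup1, 3.78 for Mup12, 3.64 for Mup15, 3.37 for Serpinb9b, -2.53 for Prr32, -2.37 for Cyp2e1, -1.52 for Lgals7 and -1.31 for Ces1f. Without males 2 and 6 at 5 weeks Mup19, Mup22, Slc15a2 and Morn4 no longer passed for the sexes, and in females alone none of the last 8 that were tested passed for the strains.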

How the results depend on the processing

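With sex as a covariate, counts of genes called between ages stayed within 1.5 times of 2913 under every alternative run: 2359 to 3352 over the 24 fits that left out 1 library, and from 2624 to 3687 over the others. Of the calls 53.3% were upward, against 47.5% with covariates for epididymis and ovary scores and 59.4% with all 96 fat libraries in the fit. Differences between the sexes were less stable. Against 96 calls (86 above 0, 10 below), DESeq2 gave 321 (221 and 100), the fit without TH males 2 and 6 at 5 weeks 55 (38 and 17), and all 96 fat libraries 5 below 0. Leaving out 1 library gave 34 to 152 calls (33 to 129 above 0, 1 to 25 below). The difference between strains, 222 calls (144 and 78), was 453 with DESeq2 (287 and 166), 141 with no filter on low counts (95 and 46), 411 without males 2 and 6 (160 of them below 0) and 7 in females alone (6 and 1). Within males, the falls numbered 650 without males 2 and 6 and 656 without male 2 alone, against 1114. Within females DESeq2 called 914 (491 and 423) and the fit without female 3 at 5 weeks 314 (182 and 132), against 491. Deviations of same-numbered libraries from their group means correlated from -0.204 to 0.517 in the 12 pairs. The highest were those of males 3, 5 and 4 (0.517, 0.374 and 0.254). The slope of log2 CPM on GC content was 3.887 and 4.889 in male 3 at 5 and 20 weeks. No other library exceeded 2.098. Whether same-numbered libraries were handled together was not tested. A replicate block gave 46 differences between the sexes (43 and 3) and 94 differences above 0 between the strains. For single genes, 120 of 120 kept their call with DESeq2 and 119 with RLE factors. Of the same 120, 18 lost their call with no filter on low counts, 18 with a replicate block and 16 with all 96 fat libraries. Of 104 age results, 9 lost it with covariates for epididymis and ovary scores and 2 with the GC slope. Without males 2 and 6, 17 lost it and 2 reversed, Gpx5 at 0.25 and Defb42 at 0.62. The cause of these shifts was not tested. In counts as low as those of the epididymis and Mup genes in most libraries, sequencing depth limits what can be seen.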

Other observations

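Major urinary proteins, small carriers of pheromones best known from male liver, were measured in this fat and chosen here after their values were seen. Of 22 Mup genes 18 were tested, and 18 rose with age within males. Within females edgeR called 0, DESeq2 called 1, and 2 had an unadjusted p under 0.05. Summed, they stood at 1.54, 3.56 and 13.1 CPM in males at 5 weeks (lowest, median and highest) and 2.195, 43.3 and 308 CPM at 20 weeks. In females the sums were 53.3, 100.1 and 178 and 57.1, 84.02 and 137 CPM, so that young males had less than any female and older males overlapped with females. The difference between the sexes was called for 14 of the 18, and without males 2 and 6 at 5 weeks for 1, Mup16 (adjusted p = 0.0421). Mup genes are near-identical copies, and how their shared reads were assigned is not given in the sources used here, so single members are uncertain.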
